A study of Mus musculus with 4 samples.

Results

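The genes of MHC class I antigen presentation were followed through the cells of a mouse brain tumor. The set was named by gene and held 10 members, all of them present among the 21861 features of the count matrices: the classical heavy chains H2-K1 and H2-D1, the nonclassical heavy chains H2-Q4 and H2-Q7, the light chain B2m, the peptide transporter subunits Tap1 and Tap2, the loading factor Tapbp, the transactivator Nlrc5 and the immunoproteasome subunit Psmb8. Tumors came from hGFAP-cre::TP53Fl/Fl::lsl-MYCN mice, in which a Cre driven by the human GFAP promoter, active in neural precursors and their progeny, removes Trp53 and switches on human MYCN together with firefly luciferase. All 4 animals carried the same alleles and each gave 1 library: mice 4 and 5 were taken at postnatal day 43 (P43) and mice 6 and 7 at P70. No wild-type or untreated brain was among them, so the comparisons are between cell types within these mice and between the 2 ages.

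The libraries held 1739 to 3693 barcodes and 13106786 to 40621958 unique molecular identifiers (UMIs), and 10975 cells passed the filters, with a median of 1419 to 10449 UMIs per cell in the 4 mice. Cell classes were named from listed marker genes: 4151 oligodendrocyte-like (OL-like) tumor cells, 695 neuroblast-like (NB-like) and 279 astrocyte-like (AC-like) tumor cells, from clusters with at least 500 counts per 1000000 UMIs (CPM) of the transgene reporters, and 1250 endothelial cells (EC), 787 mural cells, 1067 Myeloid cells, 701 dendritic cells (DC), 326 T and NK cells, 265 B cells, 109 mature oligodendrocytes (MOL) and 140 oligodendrocyte precursors (OPC) among the others. Another 1022 cells stayed unassigned, 909 of them in a reporter-positive cluster led by MOL markers. Single cells of a tumor class often lacked reporter UMIs in the shallow library of mouse 4, where 1088 of 1762 OL-like, 65 of 70 NB-like and 17 of 18 AC-like cells had 0 or 1, and where the reporters stood at 877, 272 and 209 CPM in these classes. Cells were spread unevenly: mouse 7 held 38 EC, 37 mural cells and 22 T and NK cells, and mouse 5 held 222 OL-like cells. Any 2 libraries shared 1 to 3 barcodes. RNA of 4 Y-linked genes in vessel and immune cells went against the sex labels of mice 4 and 5 (224 CPM in mouse 4, labelled female, and 0.650 CPM in mouse 5, labelled male). Both were P43 animals, so an exchange of these libraries would leave the age groups as they are.

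MHC class I molecules show peptides from inside the cell to CD8 T cells, and NK cells sense their absence. The proteasome cuts proteins into peptides, Tap1 and Tap2 pump these into the endoplasmic reticulum, and Tapbp holds the empty heavy chain and B2m beside the transporter until a peptide is bound. Interferon-gamma raises most of these genes through Irf1 and Nlrc5, and in immune cells Psmb8, Psmb9 and Psmb10 take the place of the catalytic subunits of the constitutive proteasome. Healthy neurons and glia are known for low class I levels.

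In GRCm38 (GENCODE vM21), 8 of the 10 protein-coding genes lay in the MHC on chromosome 17, from Tapbp at 33915899-33929292 through H2-K1 at 33996017-34000347, Tap1 at 34187553-34197225, Psmb8 at 34197721-34201454, Tap2 at 34203527-34216321, H2-D1 at 35262730-35267499 and H2-Q4 at 35379617-35385290 to H2-Q7 at 35439155-35443773. B2m lay on chromosome 2 at 122147686-122153083 and Nlrc5 on chromosome 8 at 94434356-94527272. RefSeq promoter windows (GRCm38.p6, 250 bases before to 50 after the start) were found for 8 of the 10, all but Tap2 and Nlrc5. They are shown for the 4 heavy chains and for B2m, the chains of the class I molecule itself, so that the windows can be set beside each other. Capitals mark 4 short motifs, written as here or as the reverse complement, that were searched on both strands and chosen after the sequences had been read: GGGATTCCC (a kappaB site), AANNGAAA (a loose interferon response core), TGACG (as in the X2 box) and ATTGG (the Y box, an inverted CCAAT).
H2-K1, chr17:34000298-34000597 (minus strand): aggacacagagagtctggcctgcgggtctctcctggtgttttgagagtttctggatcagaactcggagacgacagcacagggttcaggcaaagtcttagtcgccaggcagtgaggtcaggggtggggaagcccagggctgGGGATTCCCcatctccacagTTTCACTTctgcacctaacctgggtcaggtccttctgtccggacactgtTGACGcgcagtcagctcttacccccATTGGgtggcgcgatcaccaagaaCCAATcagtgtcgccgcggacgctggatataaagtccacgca
H2-D1, chr17:35262844-35263143 (plus strand): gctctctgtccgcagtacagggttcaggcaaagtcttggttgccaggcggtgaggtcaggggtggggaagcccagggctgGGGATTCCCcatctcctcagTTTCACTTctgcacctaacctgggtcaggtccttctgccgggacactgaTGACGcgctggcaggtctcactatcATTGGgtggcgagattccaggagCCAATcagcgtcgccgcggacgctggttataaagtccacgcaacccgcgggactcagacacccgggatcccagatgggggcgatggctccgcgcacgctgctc
H2-Q4, chr17:35379367-35379666 (plus strand): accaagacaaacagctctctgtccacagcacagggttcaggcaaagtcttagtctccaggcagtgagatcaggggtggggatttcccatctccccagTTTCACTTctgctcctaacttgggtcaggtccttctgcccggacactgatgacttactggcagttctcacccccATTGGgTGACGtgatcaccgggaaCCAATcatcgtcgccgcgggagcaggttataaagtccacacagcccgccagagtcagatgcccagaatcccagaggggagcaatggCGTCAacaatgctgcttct
H2-Q7, chr17:35438905-35439204 (plus strand): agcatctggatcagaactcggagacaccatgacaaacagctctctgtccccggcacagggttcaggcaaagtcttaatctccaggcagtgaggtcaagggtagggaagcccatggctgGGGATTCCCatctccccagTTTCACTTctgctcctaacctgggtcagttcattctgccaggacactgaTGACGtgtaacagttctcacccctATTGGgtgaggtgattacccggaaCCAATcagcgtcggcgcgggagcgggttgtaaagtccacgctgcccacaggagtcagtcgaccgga
B2m, chr2:122147437-122147736 (plus strand): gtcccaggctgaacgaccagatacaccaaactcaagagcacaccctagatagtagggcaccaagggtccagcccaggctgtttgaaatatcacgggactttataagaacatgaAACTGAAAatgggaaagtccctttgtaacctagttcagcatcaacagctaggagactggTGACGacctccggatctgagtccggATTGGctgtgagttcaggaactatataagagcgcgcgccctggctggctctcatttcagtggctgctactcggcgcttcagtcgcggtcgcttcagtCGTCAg
The windows of H2-K1, H2-D1 and H2-Q7 held all 4 motifs in the same order, whereas H2-Q4 and B2m held 3 of them, without these exact kappaB letters. The search took GGGATTCCC only, and H2-Q4 had gggatttccc at that place, so a missing match does not mean that a kappaB site is absent. GGGATTCCC was in 0.353% of the 32851 RefSeq promoter windows of this length, AANNGAAA in 23.9%, TGACG in 20.8% and ATTGG in 37.4%. Among the 8 members with a window the kappaB letters were in 3, the interferon core in 5, TGACG in 6 and ATTGG in 7, and the Psmb8 window held none. The window of Tap1 (chr17:34187306-34187605) overlapped that of the neighbouring Psmb9 (chr17:34187281-34187580) on the other strand. A match describes these letters and is not a measured site.

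All levels were computed on the summed cells of a class in 1 mouse. The 3′ kit tags each molecule once, so these are counts of molecules that do not scale with gene length. H2-K1, one of the chains that present most peptides, was at 26.2, 7.90, 39.6 and 15.8 CPM in OL-like cells of mice 4, 5, 6 and 7. In EC of the same mice it was at 428, 439, 1041 and 648 CPM. In T and NK cells it reached 3021, 2043, 3266 and 3219 CPM. No EC or T and NK value fell into the range of the OL-like cells. H2-D1, the other classical chain, was at 62.6, 16.02, 79.9 and 34.1 CPM in OL-like cells and at 1166, 1286, 2202 and 1000 CPM in EC. B2m, without which heavy chains do not reach the surface, was at 61.8, 48.1, 96.0 and 82.8 CPM in OL-like cells against 664.5, 979, 1561 and 1296 CPM in EC and 3173, 2611, 4516 and 3088 CPM in Myeloid cells. The lowest EC value of both genes was far above the highest OL-like value. Over the classes the order of H2-K1 was OL-like cells and MOL at the bottom, then mural cells (74.9 to 501 CPM), EC, and B cells, DC, Myeloid and T and NK cells at 1126 CPM or more in every mouse with at least 20 cells. MOL (12.7 to 41.8 CPM) overlapped the OL-like cells, mural cells overlapped EC between mice, and the 4 immune classes overlapped their neighbours in this order. OPC, with at least 20 cells in mice 5 and 7 only (49.9 and 82.2 CPM), lay above every OL-like value. NB-like cells (1.76 to 92.02 CPM) and AC-like cells (49.0 and 515 CPM) were spread too widely to be placed.

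**Figure D1:**
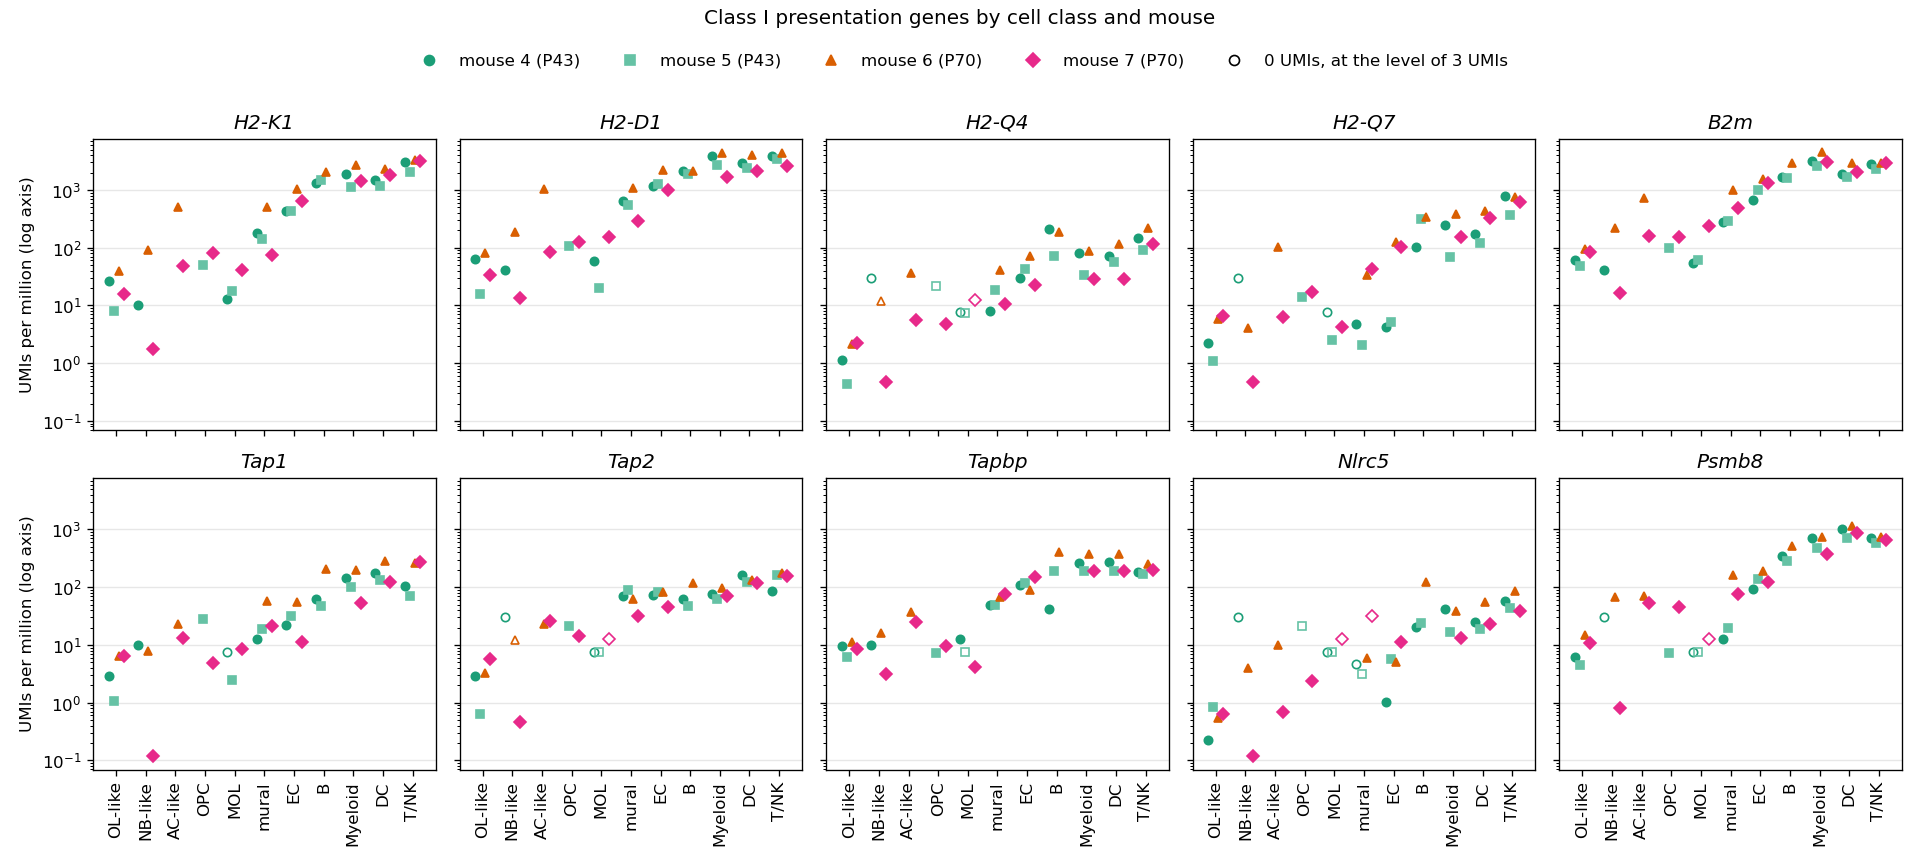
Each panel plots 1 member gene in CPM (log axis) for 11 cell classes, with 1 symbol per mouse for every class of at least 20 cells and open symbols at the level of 3 UMIs where none was counted. OL-like cells (H2-K1 at 7.90 to 39.6 CPM) lay below mural cells, EC and immune cells in most panels, and AC-like cells of mouse 6 (H2-K1 at 515 CPM) stood well above the OL-like cells of the same mouse.

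The nonclassical chains were rarer. In OL-like cells H2-Q4 stood at 0.427 to 2.25 CPM, with 22.7 to 70.7 CPM in EC and 89.96 to 222 CPM in T and NK cells. H2-Q7, which encodes the Qa-2 antigen with its neighbours, stood at 1.07 to 6.43 CPM in OL-like cells, far below the 362 to 796 CPM of T and NK cells. Its EC values were split by age and are described with the ages. Reads that fit several of the near-identical heavy chain genes are dropped in counting, so the split between H2-K1, H2-D1 and the H2-Q genes is less certain than their sum.

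OL-like cells were compared with each class of the same mice by edgeR's quasi-likelihood test on the UMI sums, with the mouse as a block and Benjamini-Hochberg adjustment over all genes tested. Against EC, all 9 members that passed the filter on low counts were lower in OL-like cells, while 25.2% of the 10632 genes tested were lower. The log2 fold changes ran from -4.89 to -3.06 with a median of -3.89, against a median of 0.23 over all genes tested. H2-K1 changed by -4.81 ± 0.33 (SE, 28.0-fold, adjusted p = 1.8e-05), H2-D1 by -4.89 ± 0.38 (adjusted p = 2.5e-05) and B2m by -3.80 ± 0.24 (adjusted p = 1.4e-05). Within single mice the EC level of H2-K1 was 16.3, 55.5, 26.3 and 40.9 times that of OL-like cells, so the difference was present in each of the 4 animals. Nlrc5 had too few UMIs in either class to be tested. H2-Q4 passed the filter only through EC, so its direction was fixed by the filter and adds no support. H2-Q7, Tap1 and Tap2 also needed the EC counts to pass, which favours a lower level in OL-like cells.

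Against mural cells, the pericytes and smooth muscle cells around the vessels, the same 9 members were tested and lower in OL-like cells, with 25.5% of 10524 genes lower. The differences were smaller, from -4.56 for Tap2 to -2.03 for H2-Q7, and H2-K1 changed by -3.26 ± 0.33 (adjusted p = 6.1e-05). H2-Q7 was the member whose call was lost without the mouse block, without mouse 6 and without integration of the libraries (8 members called each time). Where cells with more than 1 UMI of other classes' markers were left out, or each cell was thinned to 2000 UMIs, 5 members passed the filter and all 5 were lower. In the main fit H2-Q4 passed only through the mural cells, and H2-Q7, Tap1 and Tap2 needed them to pass, with the same limit as against EC.

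Against the immune classes all 10 members were tested and all 10 were lower in OL-like cells. This held against Myeloid cells (24.5% of 11159 genes lower), against DC (28.2% of 10856 genes) and against T and NK cells (19.7% of 9930 genes). H2-Q4 and Nlrc5, at most at 2.25 and 0.854 CPM in OL-like cells, passed the filter only through the immune classes. Their direction was fixed by the filter and adds no support. H2-Q7, Tap1 and Tap2 also needed the immune classes to pass, which favours a lower level in OL-like cells. The median log2 fold change of the members was -5.75 against Myeloid cells, -6.11 against DC and -6.33 against T and NK cells. H2-K1 changed by -6.73 ± 0.30 against Myeloid cells (adjusted p = 1.1e-07), and H2-D1 by -6.45 ± 0.35 (adjusted p = 1.6e-07). Among the members Psmb8 differed most from DC (-7.34 ± 0.29) and H2-Q7 most from T and NK cells (-7.50 ± 0.41). In the T and NK fit edgeR set the same quasi-dispersion for all genes, which makes its p-values much smaller than those of the other fits. Its p-values are therefore not printed, and its calls and SE rest on the same dispersion.

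**Figure D2:**
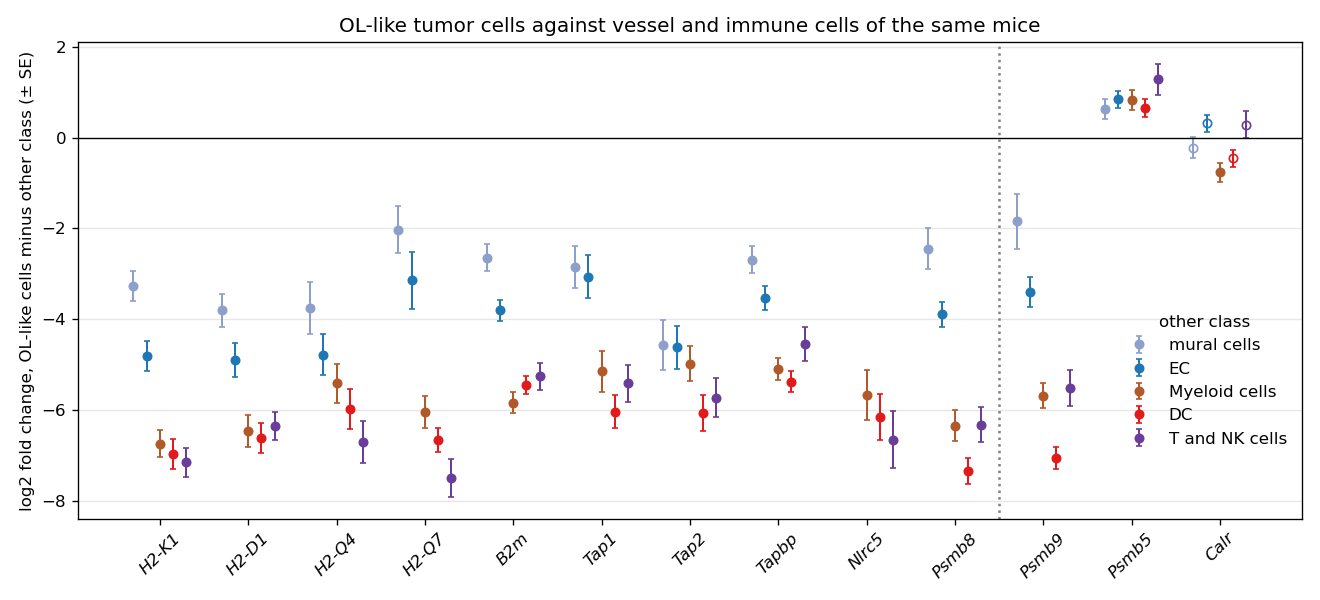
Points are log2 fold changes (OL-like cells minus the other class, edgeR) with SE bars for the 10 members and, right of the dotted line, for Psmb9, Psmb5 and Calr, with filled symbols for an adjusted p under 0.05. All member values lay between -7.50 and -2.03, whereas those of the constitutive subunit Psmb5 lay above 0.

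Psmb8 was described beside the subunit that it replaces. It was at 6.15, 4.49, 14.7 and 10.8 CPM in OL-like cells of mice 4, 5, 6 and 7, at 92.4, 138, 190 and 125 CPM in EC and at 717, 485, 739 and 380 CPM in Myeloid cells. The 3 classes did not overlap. Psmb5, the constitutive subunit at the same position, went the other way: its log2 change in OL-like cells was 0.85 ± 0.19 against EC (adjusted p = 0.0046) and 0.83 ± 0.22 against Myeloid cells (adjusted p = 0.006). Of the UMIs of this pair, Psmb8 held 1.52% to 3.60% in OL-like cells, 29.1% to 47.2% in EC, 70.4% to 82.3% in Myeloid cells and 83.4% to 87.8% in DC. The exact 95% binomial intervals of OL-like cells ended at 4.67% or lower, and those of EC began at 21.5% or higher; they cover counting error only. For the pair of Psmb9 and Psmb6 the immune form held 0.852% to 1.15% in OL-like cells and 39.9% to 68.1% in Myeloid cells.

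**Figure D3:**
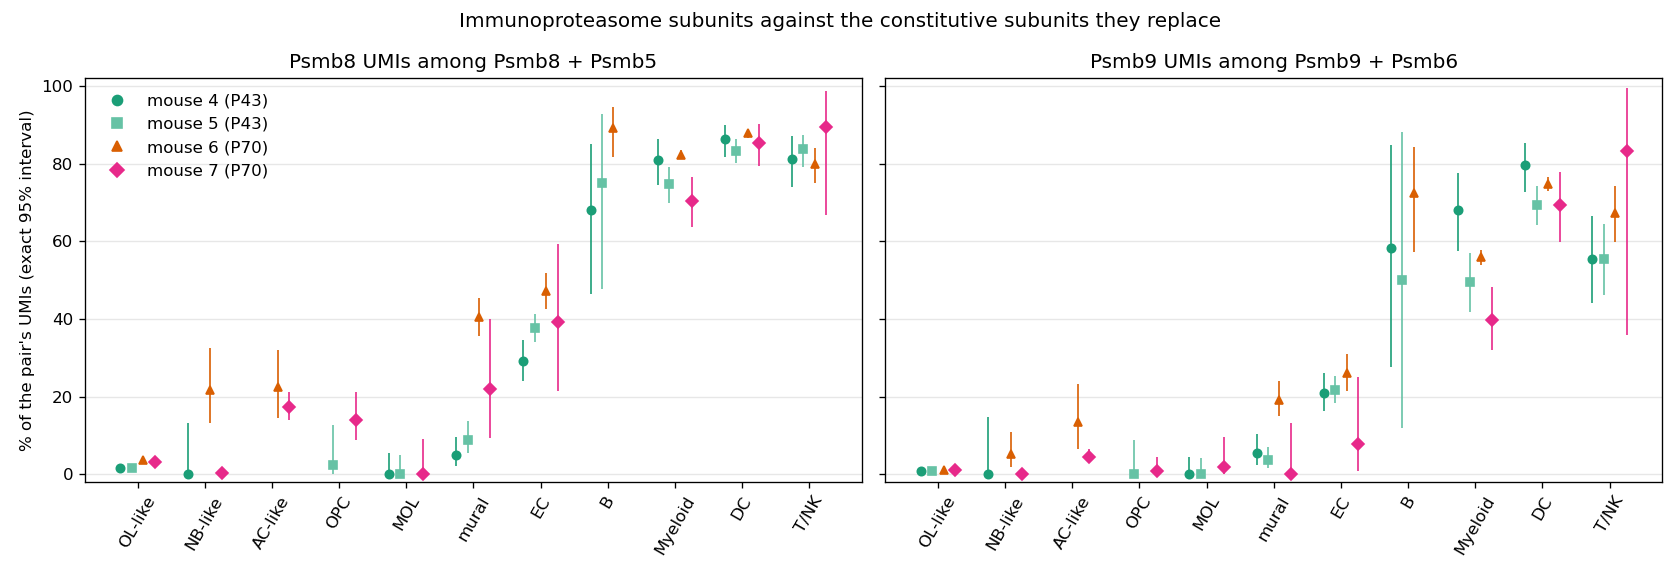
The plots give the share of Psmb8 among Psmb8 and Psmb5 UMIs (left) and of Psmb9 among Psmb9 and Psmb6 UMIs (right) per class and mouse, as a percentage with exact 95% binomial intervals. OL-like cells were at 1.52% to 3.60% (left), DC at 83.4% to 87.8%, and mural cells spanned 4.97% to 40.6%.

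The immunoproteasome list was lower in OL-like cells, and most of the constitutive list was higher than in EC, mural cells and T and NK cells. Of the 4 listed genes for immunoproteasome subunits and the PA28 activator (Psmb9, Psmb10, Psme1, Psme2), 4 were lower in OL-like cells than in EC, Myeloid cells, DC and T and NK cells, and 2 than in mural cells. In these comparisons 19.7% to 28.2% of all genes were lower. Psmb9 changed by -3.40 ± 0.32 against EC and by -7.06 ± 0.24 against DC. Of the 15 genes on the constitutive list, 13 were higher in OL-like cells than in EC (35.5% of all genes were higher) and 11 than in mural cells (25.7%). Against Myeloid cells 10 were higher (38.1%) and 1 lower, and against T and NK cells 11 were higher (28.9%). Against DC 4 were higher (31%), 1 was lower and 10 were not called, so their share was below that of all genes. Most genes of this list, such as Psmb2, encode core subunits that both forms of the proteasome share, and Psme3 encodes an activator. The counts of this list therefore show no switch of subunits. Psmb6 changed by 1.28 ± 0.20 and Psmb2 by 1.26 ± 0.23 against EC. Psmb6 was at 393 to 596.5 CPM in OL-like cells, above the 211 to 273 CPM of EC.

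Tap1 and Tap2, the subunits of the transporter, were at 1.07 to 6.55 and 0.641 to 5.63 CPM in OL-like cells. In EC they were at 11.4 to 56.4 and 45.5 to 83.2 CPM, and the Tap2 values did not overlap. The lowest Tap1 value, in EC of mouse 7, was 1 UMI and lay below the level of 3 UMIs (34.1 CPM). Whether Tap1 overlapped in that mouse cannot be told. Tap2 was the member with the largest difference from mural cells (-4.56 ± 0.55, adjusted p = 0.00015), which held it at 32.1 to 90.5 CPM. Tapbp was at 6.19 to 11.5 CPM in OL-like cells against 90.1 to 148 CPM in EC, a log2 change of -3.54 ± 0.26 (adjusted p = 2.2e-05). Among 9 further genes of peptide loading and trimming, 3 were lower and 1 higher in OL-like cells than in EC, and 4 to 6 were lower and 1 higher against the other 4 classes. Of all genes tested, 25.2% were lower and 35.5% higher than in EC, and 19.7% to 28.2% were lower and 25.7% to 38.1% higher against the others. The list's median log2 change against EC was -0.02, and its count of lower genes there was near the share of all genes. Tapbpl, a peptide editor related to Tapbp, Erap1, which trims peptides in the endoplasmic reticulum, and Lnpep, a peptidase of endosomes, were lower against all 5 classes (Erap1 -2.54 ± 0.29 against EC). Canx, a general chaperone of new glycoproteins, was higher against all 5 (0.70 ± 0.18 against EC). Calr, a chaperone of the loading complex and of many other proteins, had 475 to 675 CPM in OL-like cells, overlapping the 386 to 594 CPM of EC (0.32 ± 0.18, adjusted p = 0.17).

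Nlrc5, the transactivator of class I promoters, was counted with 0.228, 0.854, 0.546 and 0.643 CPM in OL-like cells, and with 42.2, 16.98, 38.5 and 13.1 CPM in Myeloid cells. The log2 change was -5.67 ± 0.55 against Myeloid cells (adjusted p = 6.6e-06). Nlrc5 passed the filter only through the Myeloid cells, so the direction of this change was fixed by the filter. In EC it was at 1.04 to 11.4 CPM, and in mural cells no UMI was counted in 3 of the 4 mice. Of the 18 other regulators on the list, without Sox10, which helped to name the cells, 17 were tested against EC, and 10 were lower and 1 higher in OL-like cells than in EC. Against mural cells 11 were lower and 1 higher, against Myeloid cells 12 and 2, against DC 13 and 1, and against T and NK cells 11 and 1. Of all genes tested in these comparisons, 19.7% to 28.2% were lower and 25.7% to 38.1% higher in OL-like cells. The list's lowest changes were -7.75 against Myeloid cells and -9.46 against DC, and Irf8 on it was among the leading genes of a DC cluster. Genes that passed the filter only through the other class were not set apart in these counts. Irf1, an interferon-induced activator, changed by -3.25 ± 0.45 (adjusted p = 0.00039) against EC. Ezh2, a histone methyltransferase of proliferating cells, was the gene higher in OL-like cells (2.96 ± 0.21 against EC), at 195 to 279 CPM against 22.7 to 32.8 CPM. Of 9 interferon receptors, kinases and Socs genes, 8 were lower in OL-like cells than in EC, 7 of 8 tested than in mural cells, 9 than in Myeloid cells, 9 than in DC and 7 than in T and NK cells. The share of all genes lower was again 19.7% to 28.2%, and genes that passed the filter only through the other class were not set apart here either. Jak2 (-3.08 ± 0.32) and Ifnar1 (-2.98 ± 0.23) were among those with the largest changes against EC.

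Other class I heavy chains were tested too. Of 13 listed genes among the features, 6 of the 7 tested were lower in OL-like cells than in EC, 4 of 5 than in mural cells, 7 of 9 than in Myeloid cells, 6 of 7 than in DC and 6 of 7 than in T and NK cells. The share of all genes lower was 25.2%, 25.5%, 24.5%, 28.2% and 19.7%, in this order. H2-M3, at 0 to 1.09 CPM in OL-like cells, was at 11.4 to 41.2 CPM in EC and 56.6 to 104 CPM in Myeloid cells. It passed the filter only through these classes, so its direction there was fixed by the filter. Other genes with this limit were not set apart in these counts. H2-T23, whose product Qa-1 is the ligand of CD94/NKG2 receptors, changed by -3.75 ± 0.38 against EC. The exception was Cd1d1, which presents lipids to NKT cells and was higher in OL-like than in mural cells (3.47 ± 0.86). Of 10 listed receptors that read class I on the other side, such as Cd8a, Klrd1 and Klrk1, 5 passed the filter against T and NK cells and 3 against DC. Against EC, mural cells and Myeloid cells 0 passed. They passed through the class that holds them, so their lower level in OL-like cells was fixed in advance and is not a result.

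Counting cells gave the same order. Cells were thinned to 2000 UMIs each, and shallower cells were left out, 1063 of the 1762 OL-like cells in mouse 4 and 14 to 20 in each other mouse. H2-K1 was then seen in 3.58%, 1.92%, 13.9% and 3.11% of OL-like cells and in 54.0%, 53.7%, 79.9% and 41.7% of EC of mice 4, 5, 6 and 7. B2m was seen in 8.87%, 7.69%, 21.7% and 13.7% of OL-like cells and in 74.0%, 81.1%, 86.6% and 91.7% of EC. EC exceeded OL-like cells in each mouse, by 51.7 ± 11.2 percentage points for H2-K1, 72.8 ± 13.3 for H2-D1 and 70.3 ± 6.43 for B2m (mean ± SD, n = 4 mice, two-sided exact permutation of the signs, p = 0.13, which is as low as 4 mice can give). In mouse 7 only 12 EC remained. Without thinning H2-K1 was seen in 7.78%, 11.7%, 27.6% and 9.07% of OL-like cells.

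RNA of vessel and immune markers was counted in OL-like cells too. Cldn5, the tight junction gene of brain endothelium, was seen in 7.01% of the thinned OL-like cells of mouse 4, where H2-K1 was seen in 3.58%. The shares with Cldn5 were 0.962% in mouse 5, 2.37% in mouse 6 and 0% (0 of 1836 cells, exact 95% upper bound 0.201%) in mouse 7. C1qb, a complement gene of microglia and macrophages, was seen in 0.572%, 0%, 5.09% and 0.109% of OL-like cells. H2-K1 and B2m in mouse 7 (57 and 252 of 1836 cells) were well above both. Over all UMIs the EC markers in OL-like cells stood at 0.876%, 0.206%, 0.162% and 0.0418% of their EC level and the Myeloid markers at 0.185%, 0.0564%, 0.553% and 0.0664% of their Myeloid level. H2-K1 stood at 6.12%, 1.80%, 3.80% and 2.44% of its EC level, and B2m at 9.30%, 4.91%, 6.15% and 6.39%. In each mouse both genes stood higher in relation to their EC level than the EC markers did. In relation to Myeloid cells H2-K1 stood at 1.40%, 0.702%, 1.45% and 1.13%, and B2m at 1.95%, 1.84%, 2.13% and 2.68%. In mouse 6 this 1.45% of H2-K1 stood beside 0.553% of the Myeloid markers. The share of UMIs of the members from this source was not tested.

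The OL-like cells were not uniform. In mouse 4, 895 of them formed 1 cluster with a median of 830 UMIs, 5.76% of the EC marker level and 1.15% of the Myeloid marker level, and here H2-K1 was at 120.5 CPM and B2m at 211 CPM. In the 2 other OL-like clusters with at least 20 cells in that mouse, with medians of 2876 and 6234 UMIs, H2-K1 was at 11.7 and 19.3 CPM and B2m at 44.5 and 45.9 CPM. In mouse 7 the cells of the same cluster had 0.0432% of the EC markers, and H2-K1 was at 14.2 CPM, close to the 13.6 to 27.6 CPM of the other 3 clusters. Without this cluster 9, 9, 10, 10 and 10 members were lower in OL-like cells than in EC, mural cells, Myeloid cells, DC and T and NK cells, as with it, and the median change against EC was -4.30.

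**Figure D4:**
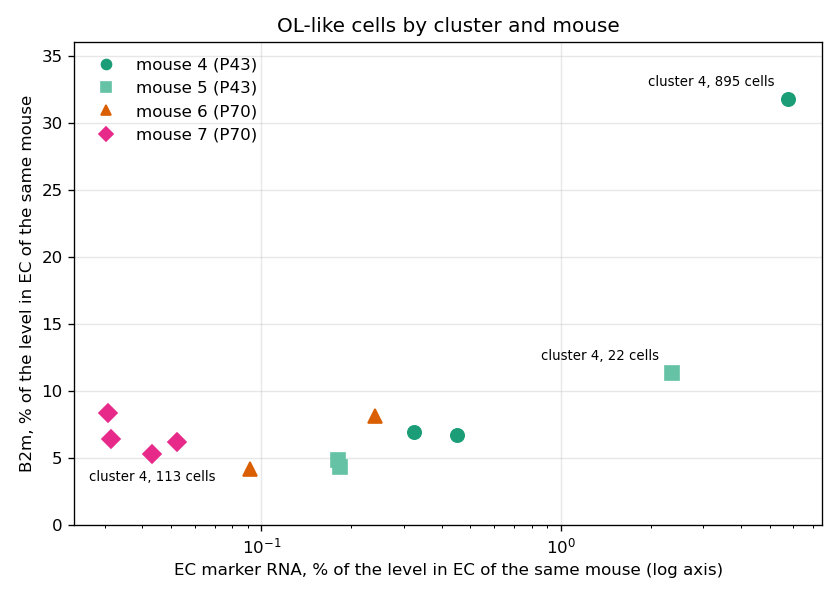
Each symbol is 1 cluster of OL-like cells in 1 mouse (at least 20 cells), with the EC marker RNA as a percentage of its EC level on the x axis (log) and B2m as a percentage of its EC level on the y axis. The 895 shallow cells of mouse 4 stood at 5.76% and 31.7%, while the 9 cluster and mouse pairs outside cluster 4 had B2m at 4.14% to 8.30% of its EC level.

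Heavy chain and light chain were counted together per cell, as a description of sparse counts. At 2000 UMIs, B2m was in 36.9% of the 130 OL-like cells of mouse 7 with H2-K1 or H2-D1 and in 11.96% of the 1706 cells without. In mouse 6 it was in 37.7% of 77 and 16.1% of 218 cells, and in mouse 4 in 16.9% of 77 and 7.88% of 622 cells. Psmb5, a gene unrelated to loading, was in 46.9% and 47.5% of the same 2 groups of mouse 7. Mouse 5 had 8 cells with a heavy chain, of which 1 had B2m.

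Among the tumor classes, NB-like cells could be compared in the 3 mice with at least 20 of them (mice 4, 6 and 7), and no member was called in edgeR's test (0 of 8 tested, H2-Q4 and Nlrc5 having too few UMIs, 5.01% of 11370 genes called in either direction). Tap2 and H2-Q7 had an unadjusted p under 0.05, and DESeq2 called 0 members as well. The H2-K1 values of NB-like cells were 10.1 (1 of 99165 UMIs), 92.02 and 1.76 CPM in these mice, a wider spread than in OL-like cells. The 70 cells of mouse 4 had a median of 1019 UMIs, and 65 of them had 0 or 1 reporter UMI. Mouse 4 kept 4 NB-like cells with the ceiling at 60000 UMIs, 2 under 10% mitochondrial UMIs and 0 without integration, and the comparison was then not made. The value of mouse 6 rested on 29 cells with 1.28% of the Myeloid marker level, and on its 22 cells with at least 2 reporter UMIs H2-K1 was at 25.5 CPM. Without mouse 4, 3 members (H2-Q7, Tap1 and Tap2) were higher in OL-like than in NB-like cells. That fit leaves 1 residual degree of freedom. In NB-like cells these genes had 1, 2 and 0 UMIs in mouse 6, below the level of 3 UMIs, and 4, 1 and 4 UMIs in mouse 7. In mouse 6 the Tap1 value was higher in NB-like than in OL-like cells, while those of H2-Q7 and Tap2 were lower. The part of the 70 cells of mouse 4 in the absence of calls was not tested.

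AC-like cells stood apart. Only mice 6 and 7 held at least 20. In mouse 6 (51 cells) H2-K1 was at 515 CPM, H2-D1 at 1027 CPM and B2m at 738 CPM, against 39.6, 79.9 and 96.0 CPM in OL-like cells of that mouse. In mouse 7 (200 cells) they were at 49.0, 84.0 and 161 CPM, against 15.8, 34.1 and 82.8 CPM. Psmb8 was at 69.8 and 53.9 CPM in AC-like cells of the 2 mice and held 22.3% and 17.3% of the UMIs of the Psmb8 and Psmb5 pair. All 10 members were higher in AC-like than in OL-like cells of mouse 6. In mouse 7 the values of 8 members were higher, while H2-Q7 (6.30 against 6.43 CPM) and Nlrc5 (0.700 CPM from 1 UMI against 0.643 CPM) were close. In edgeR's test on these 2 mice, with the mouse as a block and added after seeing the data, 6 of 9 members tested were lower in OL-like cells (8.6% of 10834 genes were): H2-K1 (-2.58 ± 0.41, adjusted p = 0.00043), H2-D1 (-2.41 ± 0.45), B2m (-1.85 ± 0.40), Tap2 (-2.35 ± 0.55), Tapbp (-1.50 ± 0.44) and Psmb8 (-2.20 ± 0.36). H2-Q4, H2-Q7 and Tap1 were not called (adjusted p = 0.068, 0.079 and 0.16). The fit leaves 1 residual degree of freedom. The cells carried the transgene reporters at 2282 and 2190 CPM, and the EC markers were at 0.428% and 0.549% and the Myeloid markers at 1.68% and 0.306% of their own classes. In the 39 AC-like cells of mouse 6 with at least 2 reporter UMIs, H2-K1 was at 499 CPM. In 2 alternative clusterings mouse 4 reached 20 AC-like cells too, and there 6 and 7 of 9 members were lower in OL-like cells. In the main clustering the 18 AC-like cells of mouse 4 carried EC markers at 22.9% of the EC level and 209 CPM of reporter. The part of EC RNA in these 2 counts was not tested.

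MOL, the myelinating cells of the same brains, were also low. H2-K1 was at 12.7, 17.5 and 41.8 CPM and B2m at 53.4, 60.04 and 238 CPM in MOL of mice 4, 5 and 7, overlapping the OL-like cells. The MOL of these mice carried 7.62, 27.5 and 656 CPM of reporter RNA. The value of mouse 7 lay above the 500 CPM set for a tumor cluster, and its part in the MOL levels was not tested. The log2 changes of OL-like cells against MOL were -0.54 ± 0.55 for H2-K1, -0.87 ± 0.45 for H2-D1 and -0.60 ± 0.35 for B2m (adjusted p = 0.48, 0.16 and 0.21). The other members were too rare to be tested, and of the 5 tested 1 was called (36.8% of 10163 genes were): Psmb8, with 0 of 1032625 UMIs in MOL of the 3 mice, which allows up to 2.905 CPM over the group (3 counts). Its adjusted p was 0.049, and the call was lost with DESeq2. Psmb8 passed the filter only through the OL-like cells, so its direction was fixed by the filter and adds no support. Without the shallow OL-like cluster H2-D1 was called in its place, lower in OL-like cells. OPC of mice 5 and 7 had H2-K1 at 49.9 and 82.2 CPM (7 and 34 UMIs), above the 7.90 and 15.8 CPM of OL-like cells of these mice.

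The ages were compared with 2 mice each by the same test. Nlrc5 was too rare to be tested in OL-like cells, EC and mural cells. In EC, 3 of 9 members tested were higher at P70 (5.69% of 8864 genes were higher), and none was lower. H2-Q7 was at 4.15 and 5.10 CPM at P43 and at 125 and 102.3 CPM at P70, with no overlap, a log2 change of 4.74 ± 0.33 (26.6-fold, adjusted p = 1.5e-05). These values rested on 4 and 10 UMIs at P43 and on 148 and 9 UMIs at P70. H2-Q7 passed the filter on low counts only through the P70 mice. Its direction was therefore fixed by the filter, and its place among the 3 adds no support. Its neighbour H2-Q6, a near-identical gene, moved with it (1.04 and 1.02 CPM against 41.2 and 34.1 CPM, 5.26 ± 0.56, adjusted p = 0.00024). The P43 values of H2-Q6 lay below the level of 3 UMIs (3.12 and 1.53 CPM), and its value in mouse 7 was at that level. Reads of near-identical genes are hard to assign, so H2-Q6 is no separate support. In T and NK cells of the same mice H2-Q7 was at 796 and 362 CPM at P43 and 761 and 628 CPM at P70 (0.29 ± 0.39, adjusted p = 0.87), so the gene was counted at both ages. H2-K1 (1.11 ± 0.25, adjusted p = 0.015) and B2m (0.89 ± 0.24, adjusted p = 0.038) were also higher in EC at P70. The labels do not give the strain or MHC haplotype of each mouse, and haplotypes are known to differ in their H2-Q genes, and the part of genotype in these values was not tested. H2-Q7 was called in EC in every alternative with all 4 mice that changed the EC cells or the test and could be fitted. Alternatives that changed only the OL-like cells (reporter UMIs, MOL-marker cluster joined, shallow cluster left out) left the EC fit as it was and are not counted here. H2-K1 and B2m were both lost when either P43 mouse was left out, where 1 member was called, and without mouse 7 a total of 7 members were called. The Myeloid markers in EC stood at 0.170% and 0.1235% of their Myeloid level at P43 and at 1.42% and 0.389% at P70, where H2-Q7 in Myeloid cells themselves was at 390 and 154.5 CPM, and their part in the result was not tested. The EC of the 2 ages also sat in different clusters when the libraries were not integrated. One EC cluster then held 391 of 419 and 486 of 498 EC at P43 but 75 of 295 and 27 of 38 at P70, and a second, with Vwf, Apln and Angpt2 among its leading genes, held 218 EC of mouse 6. Within the first cluster H2-Q7 was at 4.35 and 4.28 CPM at P43 and at 69.9 and 102.3 CPM (12 and 3 UMIs) at P70. In a test on these cells alone, added after seeing the data, H2-Q7 (4.06 ± 0.60, adjusted p = 0.00035), H2-K1 (1.28 ± 0.21) and B2m (1.07 ± 0.23) were again the 3 members called of 9 (1.06% of 7082 genes were higher). Here too H2-Q7 passed the filter only through the P70 mice, with the same limit. Mouse 7 gave 38 EC, which carried 420.5 CPM of reporter RNA against 28.6 to 38.4 CPM in EC of the other mice. Among listed genes Socs3 (2.46 ± 0.32), Irf8 (3.12 ± 0.63), Ifngr2 (1.24 ± 0.27) and Stat3 (1.13 ± 0.23) were higher in EC at P70. Of these, Socs3, Ifngr2 and Stat3 were not called within the first cluster (1.87, 0.59 and 1.02), and Irf8 could not be tested there.

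In mural cells 6 of 9 members tested were higher at P70 (10.8% of 8534 genes were higher), but the class held different cells at the 2 ages. Without integration 184 of the 215 mural cells of mouse 6 and 24 of the 37 of mouse 7 fell into a cluster led by the collagen genes Col3a1 and Col1a1, against 3 of 273 and 2 of 262 at P43. Over the whole class no UMI of Col1a1 was counted at P43, while P70 gave 633 and 149.9 CPM, and the pericyte gene Vtn stood at 16410 and 16200 CPM against 4243 and 3223 CPM, whereas Rgs5, another pericyte gene, was at 10410 to 14900 CPM without a split by age. A change within mural cells and a change of the cells in the class cannot be told apart here. Psmb8 was at 12.6 and 19.8 CPM at P43 and at 160.5 and 74.9 CPM at P70, without overlap (3.30 ± 0.34, adjusted p = 1.3e-05). B2m was at 274 and 284 CPM against 1004 and 492.5 CPM (1.75 ± 0.25, adjusted p = 0.00018). H2-Q7 (3.59 ± 0.56), Tap1 (1.90 ± 0.41), H2-Q4 (1.56 ± 0.48) and H2-K1 (1.45 ± 0.39) were the others. H2-Q7 was at 4.73 and 2.08 CPM at P43 and at 33.5 and 42.8 CPM at P70, and passed the filter only through the P70 mice. Its direction was fixed by the filter and adds no support to the count of 6. H2-K1 was at 183 and 140.5 CPM at P43 and at 501 and 74.9 CPM at P70, so the ages overlapped and the P70 mice lay on both sides. In the main mural cluster without integration (195, 244, 24 and 9 cells), B2m was at 269.8, 284, 1314 and 486 CPM, and Psmb8 at 14.1, 19.4 and 109.5 CPM, with 0 of 10288 UMIs in mouse 7, whose cells were too few for a test. Without mouse 6 edgeR called 0 of the 8 members tested, and H2-K1 changed by -0.93. In mouse 6 the mural cells carried 1.46% of the Myeloid marker level and 4.22% of the EC marker level, against 0.204% to 0.2805% and 1.69% to 5.47% in the other mice, and their part in the result was not tested. All 4 immunoproteasome and activator genes were called higher at P70 (Psmb9 2.45 ± 0.54). Of the Psmb9 and Psmb6 UMIs in mural cells, Psmb9 held 5.37% and 3.73% at P43. At P70 it held 19.2% in mouse 6 and 0% in mouse 7, so the P70 mice lay on both sides. The exact binomial interval of mouse 7 reached 13.2%, so its place against P43 is uncertain. Irf1 (2.75 ± 0.32, adjusted p = 3.5e-05) and Socs3 (3.13 ± 0.29) were also higher at P70. Irf1 was at 14.2 and 14.6 CPM at P43 and 80.8 and 107 CPM at P70.

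**Figure D5:**
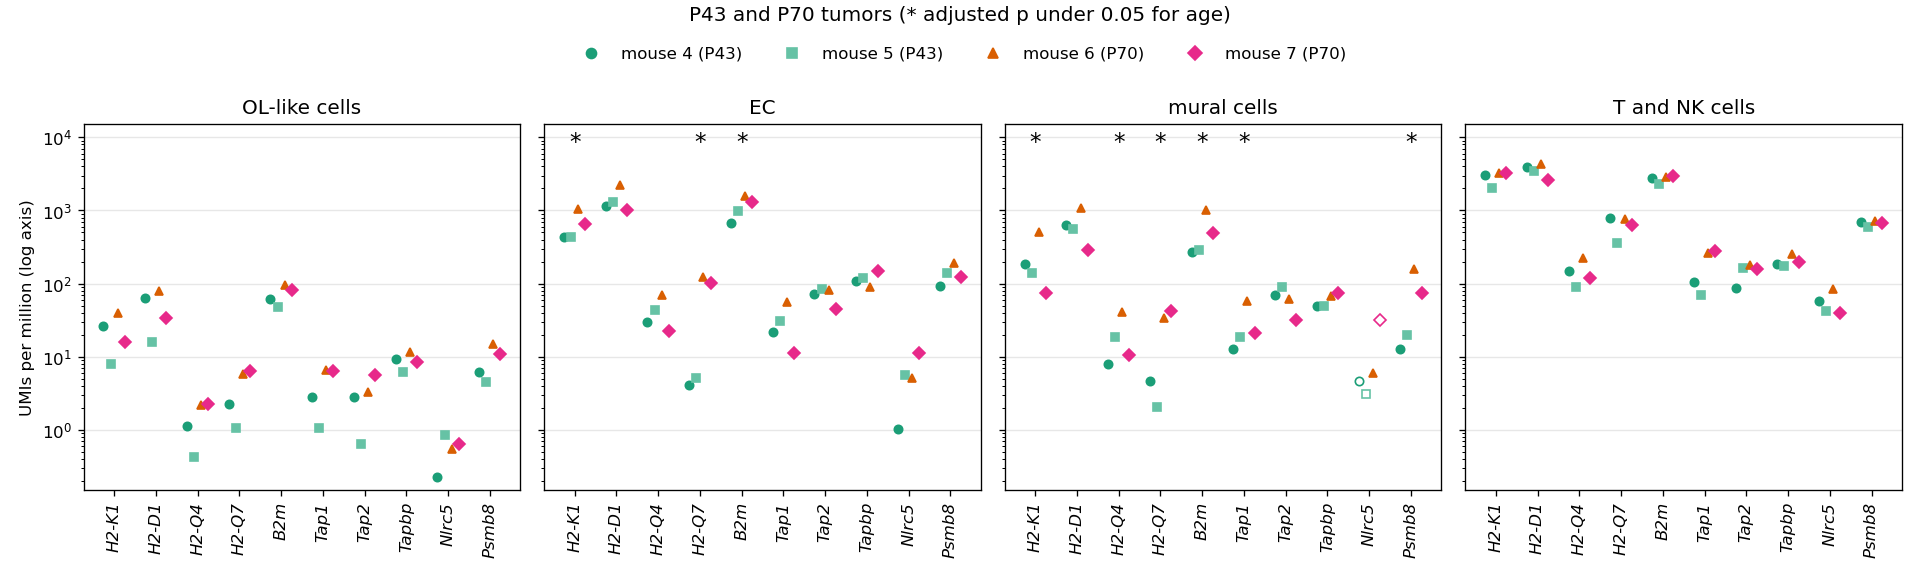
Panels show the 10 members in CPM (log axis) in OL-like cells, EC, mural cells and T and NK cells, with 1 symbol per mouse, P43 in green and P70 in orange and pink, and stars for an adjusted p under 0.05. H2-Q7 in EC was at 4.15 and 5.10 CPM at P43 and at 125 and 102.3 CPM at P70, while in T and NK cells the ages overlapped.

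OL-like cells showed no called change with age. Of 9 members tested 0 were called by edgeR, as were 0% of the 11524 genes, and 518 genes had an unadjusted p under 0.05, among them H2-Q7 (1.77 ± 0.56), Tap1 (1.63 ± 0.60), Psmb8 (1.198 ± 0.401) and B2m (0.65 ± 0.23), each with an adjusted p of 1.0. DESeq2 also called 0 members. All 9 log2 changes were above 0, from 0.29 to 1.77, with a median of 1.198 against -0.003 over all genes tested. H2-Q4, H2-Q7, B2m, Tap1, Tap2 and Psmb8 were higher in both P70 mice than in both P43 mice, whereas H2-K1, H2-D1 and Tapbp were not. H2-Q4, at 1.14 and 0.427 CPM at P43 and 2.18 and 2.25 CPM at P70, passed the filter only through the P70 mice. Its sign was fixed by the filter and adds no support. H2-Q7, Tap1 and Tap2 also needed a P70 mouse to pass, which favours a higher level at P70.

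Among immune cells few members passed the test. In DC 1 of 10 was higher at P70 (1.6% of 5566 genes): H2-Q7, at 170 and 119 CPM against 425 and 323 CPM (1.43 ± 0.28, adjusted p = 0.023). That call was lost in several alternatives. In Myeloid cells edgeR called 0 of 10 (0.161% of 5580 genes), with no member at an unadjusted p under 0.05, and in T and NK cells 0 of 10 (0.595% of 4541 genes), with 1 member, Tap1, at an unadjusted p under 0.05 (104 and 70.7 CPM against 265 and 275 CPM, adjusted p = 0.075). DESeq2 called 0 members in both classes. Leaving out a mouse moved both counts from 0: without mouse 7, H2-K1, H2-Q7 and B2m were called in Myeloid cells, without mouse 6 H2-D1, and Tap1 was called in T and NK cells without mouse 4 or mouse 7. A test of the difference between age changes called no member, neither for EC against OL-like cells (0 of 9, 0.0752% of 10632 genes called) nor for Myeloid cells against OL-like cells (0 of 10, 0.287% of 11159 genes called). An unadjusted p under 0.05 was found for H2-Q7 in the first (its change in EC exceeded that in OL-like cells by 2.80 ± 0.76, adjusted p = 0.22) and for Tap1 and Psmb8 in the second, and DESeq2 called 0 members in both. On simulated counts with the same mice this test of a difference found few of the changes put in, so its lack of calls does not show that the classes changed alike.

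Across 37 sums of a class in a mouse, the 5 genes outside the lists whose log2 level was most like the mean of H2-K1, H2-D1 and B2m were Sp100 (Pearson r = 0.95), Iqgap1 (0.95), Dtx3l (0.94), Parp14 (0.94) and Fxyd5 (0.94), out of 9969 genes compared. Sp100 encodes a nuclear body protein, Iqgap1 a scaffold of the actin cytoskeleton, Dtx3l a ubiquitin ligase, Parp14 an ADP-ribosyltransferase and Fxyd5 a membrane protein that regulates the sodium pump. Sp100 stood at 0.0804 to 3.001 CPM in OL-like cells, against 107 to 216 CPM in EC. Of the members outside that mean, H2-Q4 (0.93), Psmb8 (0.93), Tapbp (0.93) and Tap1 (0.92) came next and Nlrc5 was at 0.88. The sums share libraries, and the value is a description without a p.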

How the data were processed

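Tumors of 4 mice, 2 per age, were dissociated with papain, stored frozen and sorted for live cells before 10x 3′ v3.1 sequencing. The authors made the deposited UMI counts with Cell Ranger 6.0.2 on mm10 with FLUC and humanNMYC added (the submitters' processing notes and the study's methods). Each library gave raw counts per gene and barcode. Libraries taken at other ages were not analysed here. Cell Ranger counts reads that fit 1 gene, so near-identical heavy chain genes can lose reads.

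Cells with at most 40000 UMIs, under 25% mitochondrial UMIs and at least 200 genes were kept, with features seen in at least 3 cells. Seurat 5.3.0 (R 4.3.3) integrated the libraries on 2000 variable genes and 30 principal components and clustered them at resolution 0.5, leaving 91 listed genes (members, related genes) out. Clusters were named from 18 marker lists (at least 3 markers raised at least 2-fold, with 10 CPM added), and a tumor class needed 500 CPM of reporter. Trbc1, Ighm and Iglc2, 3 of the markers, were not used. No doublet caller was run, and the UMI ceiling was the only guard.

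UMIs were summed per class and mouse (classes of at least 20 cells), the mouse being the replicate. edgeR 4.0.16 (quasi-likelihood test, TMM, its filter on low counts) was fitted over all genes with Benjamini-Hochberg adjustment at 0.05, with the mouse as a block between classes and without it between ages. SE is the log2 fold change divided by the square root of F. The fits were tested on simulated data. Alternatives were RLE scaling, DESeq2 1.42.0, no filter, other cell filters, clusterings and thinnings, and each mouse left out; 5 further ones (OL-like cells with at least 2 reporter UMIs, the MOL-marker cluster joined, the shallow OL-like cluster left out, EC of 1 unintegrated cluster, AC-like cells with 2 mice) were chosen after seeing the data. Intervals are exact 95% binomial (scipy 1.17.1, Python 3.11.15) and cover counting error only. The genes named beside the members were taken from listed genes of the pathway, and the 5 most similar genes by Pearson correlation of log2(CPM + 1). Members and lists were chosen with earlier results of these data known.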

Additional observations from a re-analysis of the deposited data

Results flagged for a closer look

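Socs3, a feedback inhibitor of cytokine signalling, changed with age differently in Myeloid cells and in OL-like cells: the log2 change from P43 to P70 in Myeloid cells minus that in OL-like cells was -2.66 ± 0.59 (edgeR's quasi-likelihood test of the interaction, Benjamini-Hochberg adjusted p = 0.027, 2 mice per age).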

How the results depend on the processing

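Against EC, Myeloid cells, DC and T and NK cells, every member that could be tested was lower in OL-like cells under all alternatives run. Against mural cells 9 members became 5 in cells with at most 1 UMI of other markers and 5 in thinned cells. Against NB-like cells 0 became 0 to 3 with a mouse left out. Against MOL 1 became 0 with DESeq2, under 10% mitochondrial UMIs, without integration and with at least 2 reporter UMIs, 3 at resolution 1.0, and 0 to 1 with a mouse left out, and Psmb8 turned to -0.75 at resolution 1.0 and -0.41 without integration. Between ages, leaving out a mouse gave 1 to 7 members in EC, 0 to 6 in mural cells, 0 to 3 in Myeloid cells, 0 to 3 in DC and 0 to 1 in T and NK cells. Such a fit assumes that the lone mouse varies like the other age. Mural cells gave 3 with DESeq2 and 3 with few other markers. DC gave 2 without the filter and 0 with 60000 UMIs, 10% mitochondrial UMIs, listed genes kept or thinning. T and NK cells gave 1 with few other markers. Without P70 replicate 1 (mouse 6), H2-K1, P70 against P43 in mural cells, turned to -0.93 (up to 1.86 without another mouse) and H2-Q4, P70 against P43 in mural cells, to -0.23 (up to 2.26). The cause was not tested. The share difference between EC and OL-like cells was 38.1 points for H2-K1 at 1000 UMIs and 31.5 at 2 or more UMIs, 54.4 for H2-D1 without thinning, and 53.7, 53.3 and 37.4 for B2m under these 3 settings. Among single genes, 1267 values with a mouse left out and 4337 under other alternatives stayed on the same side of the threshold, 89 and 88 lost the call and 21 and 11 gained it. In 135 of those that stayed the sign differed, where neither fit made a call. Alternatives that changed only the OL-like cells could not move the age fits of the other classes, and these are among the values that stayed.

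The mouse pairs the classes, since both come from 1 animal. Without the replicate block 9, 8, 10, 10, 10, 0 and 1 members were called against EC, mural cells, Myeloid cells, DC, T and NK cells, NB-like cells and MOL. No paired analysis was possible because the mice of the 2 ages are different animals. With 2 mice per age, 38 EC and 37 mural cells in mouse 7, and 222 OL-like cells in mouse 5, the age changes rest on few cells.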

Other observations

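The ratio of H2-D1 to H2-K1 UMIs was lower in mouse 7 than in the other 3 mice in several classes. In EC it was 1.54 against 2.12 to 2.93, in Myeloid cells 1.185 against 1.63 to 2.44, in DC 1.17 against 1.74 to 2.09 and in T and NK cells 0.817 against 1.29 to 1.67. In OL-like cells it was 2.15, within the 2.02 to 2.39 of the others, and in mural cells 3.86, within 2.15 to 3.95, where mouse 7 gave 7 UMIs of H2-K1. The labels give no strain or MHC haplotype per mouse, and whether these differ between the mice was not tested.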
